A study of Homo sapiens with 2 samples.

Results

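Peroxiredoxins are thiol peroxidases that remove hydrogen peroxide, and the thioredoxin system hands them the electrons they need. The 10 genes described here are the 6 peroxiredoxins PRDX1 to PRDX6, the thioredoxins TXN and TXN2, and the thioredoxin reductases TXNRD1 and TXNRD2. They were taken by name, all 10 were found among the 55773 gene symbols of the data, and all 10 reached 1 RPKM (reads scaled to exon length and to the size of the library) in at least 1 library, as 11802 genes did in all. The set was selected on the RPKM of PRDX3 in these same libraries, which is among the most reduced with ANGPTL4, so the values of PRDX3 are a description, and the difference between the libraries is not tested here.

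Total RNA was sequenced from cells of BFTC 905, a human urothelial carcinoma line of the bladder, whose own ANGPTL4 level the labels describe as low. The vector control cells carried pcDNA3.1 and the ANGPTL4 cells carried a plasmid that overexpresses ANGPTL4, a secreted regulator of lipoprotein lipase. Both were stable transfectants selected with 400 ug/ml G418. Whether a library came from 1 clone or from a pool of clones was not given in the sources used here. There was 1 library per group, so no value has a replicate check and no p-value is given. What follows is therefore a comparison of 2 libraries, and a difference between separately selected clones cannot be told apart from an effect of ANGPTL4.

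The library totals recovered from the values were 6572767 reads for the control and 3233596 reads for ANGPTL4. Intervals given below are exact 95% intervals from the reads behind each value and cover counting error only. ANGPTL4 itself was at 3.92 RPKM with the vector and 91.2 RPKM with ANGPTL4, which matches the labels, although plasmid and chromosomal reads are not separated. Of 15 urothelial and epithelial markers, 11 reached 1 RPKM, with summed levels of 1630 and 1571 RPKM in the vector and ANGPTL4 libraries, while UPK3A was listed at 0 in both. No fibroblast marker, none of the 3 endothelial markers found in the data and 1 of 5 leukocyte markers reached 1 RPKM. PECAM1, a further endothelial marker of the list, was not found under that name. The summed level of each of the fibroblast, endothelial and leukocyte lists was at most 1.15 RPKM in either library. Genes of the mitochondrial genome took up 5.11% of control reads and 8.71% of ANGPTL4 reads, and with levels set per read left after removing those genes, ribosomal protein genes and small RNAs, the log2 ratio of PRDX3 given below as -1.65 was -1.61.

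A peroxiredoxin attacks peroxide with a reactive cysteine, called the peroxidatic cysteine, and is then oxidised. In the typical 2-Cys class (PRDX1 to PRDX4) and in PRDX5 a resolving cysteine closes a disulfide, which thioredoxin reduces. Thioredoxin is in turn reduced by thioredoxin reductase, a selenoprotein that draws on NADPH. PRDX6, the 1-Cys peroxiredoxin, relies on glutathione instead. The system is divided by compartment. PRDX1, PRDX2, PRDX6, TXN and TXNRD1 work mainly in the cytosol. PRDX3, TXN2 and TXNRD2 work in the mitochondria, PRDX4 in the endoplasmic reticulum, and PRDX5 in mitochondria, peroxisomes and cytosol.

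The coding sequence around the catalytic site shows how alike the peroxiredoxins are in that stretch. Each stretch is the sense strand of a GENCODE release 29 transcript, 5′ to 3′, with the codon of the peroxidatic cysteine in capitals.
PRDX1: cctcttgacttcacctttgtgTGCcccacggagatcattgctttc
PRDX2: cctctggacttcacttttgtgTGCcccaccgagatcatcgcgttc
PRDX3: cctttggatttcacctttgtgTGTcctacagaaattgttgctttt
PRDX4: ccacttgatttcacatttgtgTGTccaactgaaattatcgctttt
PRDX5: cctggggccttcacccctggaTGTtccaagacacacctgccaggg
PRDX6: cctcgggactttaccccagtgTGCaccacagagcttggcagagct

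The capital codon is number 52 in PRDX1, 51 in PRDX2, 108 in PRDX3, 124 in PRDX4, 100 in PRDX5 and 47 in PRDX6, counted from the start codon. On build GRCh38 the stretches of PRDX1 (chr1:45515737-45515781, minus strand) and PRDX2 (chr19:12800999-12801043, minus strand) lie within exon 3, and that of PRDX6 (chr1:173481348-173481392, plus strand) within exon 2. Those of PRDX3 (chr10:119173839-119174461, minus strand, exons 3 and 4), PRDX4 (chrX:23671636-23675023, plus strand, exons 2 and 3) and PRDX5 (chr11:64319839-64320675, plus strand, exons 2 and 3) cross an intron, which is left out of the letters. Over the 45 bases PRDX3 shares 35 with PRDX1, 33 with PRDX2 and 37 with PRDX4, against 21 with PRDX5 and 26 with PRDX6. The longest run of identical bases between the coding sequence of PRDX3 and any other peroxiredoxin was 14 bases. No word of 50 bases from the main transcript of any of the 10 genes occurs in the transcripts of another of them.

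The thioredoxins and the reductases are shown in the same way, with the codons of the 2 active-site cysteines of each thioredoxin in capitals, and with the TGA that is read as selenocysteine, not as a stop, in capitals for each reductase.
TXN: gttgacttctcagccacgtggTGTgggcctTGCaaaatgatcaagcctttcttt
TXN2: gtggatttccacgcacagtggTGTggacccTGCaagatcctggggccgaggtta
TXNRD1: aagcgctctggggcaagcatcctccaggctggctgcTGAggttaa
TXNRD2: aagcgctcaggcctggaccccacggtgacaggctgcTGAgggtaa

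On build GRCh38 the TXN stretch (chr9:110251361-110251414, minus strand) lies within exon 2, and that of TXN2 (chr22:36476820-36480591, minus strand) spans exons 2 and 3. Both reductase stretches end with the stop codon, TXNRD1 (chr12:104348377-104348421, plus strand) in exon 15 and TXNRD2 (chr22:19877105-19877149, minus strand) in exon 17 of the transcript used. TXN and TXN2 share 33 of the 54 bases shown, and the reductases share 28 of 45. The selenocysteine codon is the last but one before the stop in both reductases, at number 498 of 499 codons in TXNRD1 and 523 of 524 in TXNRD2.

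Among the peroxiredoxins the ANGPTL4 library had less of 4 genes and closely similar amounts of the other two. PRDX3, the mitochondrial member, was at 35.2 RPKM with the vector (32.8 to 37.7, from 790 reads) and 10.5 RPKM with ANGPTL4 (8.68 to 12.6, from 116 reads). The intervals are far apart, and the ratio was 0.298 (0.243 to 0.363), or -1.65 on the log2 scale. The log2 values given here are log2((RPKM + 1) with ANGPTL4 / (RPKM + 1) with the vector), which understates differences of low genes. PRDX3 (hg19, chromosome 10, 120927215 to 120938345) was the only one of the 10 with a difference of at least 2-fold on that scale. Of all 11802 measured genes, 1.91% were at least 2-fold lower and 1.19% at least 2-fold higher. After centring on the median gene the lower genes numbered 139 and the higher genes 182, against 226 and 141 as deposited. PRDX3 ranked sixth from the lowest log2 ratio among 4147 named genes with at least 10 RPKM in a library. The gene next below it in that order was PPP3R1 at -1.69. In bulk RNA, fewer cells with PRDX3 and less PRDX3 RNA per cell cannot be told apart.

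PRDX4, the peroxiredoxin of the endoplasmic reticulum that oxidises protein disulfide isomerases, was at 41.0 RPKM with the vector (37.5 to 44.7) and 23.4 RPKM with ANGPTL4 (19.7 to 27.5). Its ratio was 0.571 (0.471 to 0.688), the next lowest of the 10. PRDX1, the abundant cytosolic peroxiredoxin, was at 163.4 RPKM with the vector and 107.7 RPKM with ANGPTL4, from 1635 and 530 reads, a ratio of 0.659 (0.596 to 0.727). These genes and PRDX3 were at least 1.5-fold lower on the log2 scale, 3 of the 10, where 9.25% of measured genes were at least that much lower and 3.08% at least that much higher. Without PRDX3, on which the set was selected, the count was 2 of 9. PRDX1 was only just past 1.5-fold, at -0.60 on the log2 scale, and fell short of it at -0.49 after centring on the median gene. PRDX6, which also acts as a phospholipase, was at 69.3 and 48.2 RPKM, a ratio of 0.696 (0.617 to 0.784). For each of these the control level lay above the ANGPTL4 level by more than counting error.

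PRDX2 and PRDX5 did not share that difference. PRDX2, the cytosolic peroxiredoxin that is best known from red cells, was at 114.3 RPKM with the vector and 116.0 RPKM with ANGPTL4, a ratio of 1.02 (0.931 to 1.11). PRDX5, the atypical 2-Cys member, was at 252.2 and 257.3 RPKM, a ratio of 1.02 (0.933 to 1.12). Their intervals include 1, and limit any difference to about that range as far as counting goes. Since 28.1% of the 10472 measured genes with a settled exon length had an interval wholly below 1 and 8.5% one wholly above 1, the 5 members below (PRDX1, PRDX3, PRDX4, PRDX6 and TXNRD1) and the 1 above (TXN2) stand beside a broad difference between the libraries. Such counts depend on reads, and among the 4276 of those genes with at least 300 control reads, as all members but TXNRD2 have, the shares were 40.5% and 12.9%. The like counts were 5 of 9 members below and 1 above, and PRDX3, on which the set was selected, was among the 5. With so few genes no excess of members can be read from these counts. Against the median ratio of measured genes, 0.911, the same comparison put 5 members below and 3 above (PRDX2, PRDX5 and TXN2). Of the 10472 genes, 17% and 16.4% were below and above. Those shares cover genes of all read depths, and none was computed for genes with at least 300 control reads. An excess of members therefore cannot be read from them. Without PRDX3, on which the set was selected, 4 of 9 members were below.

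**Figure D1:**
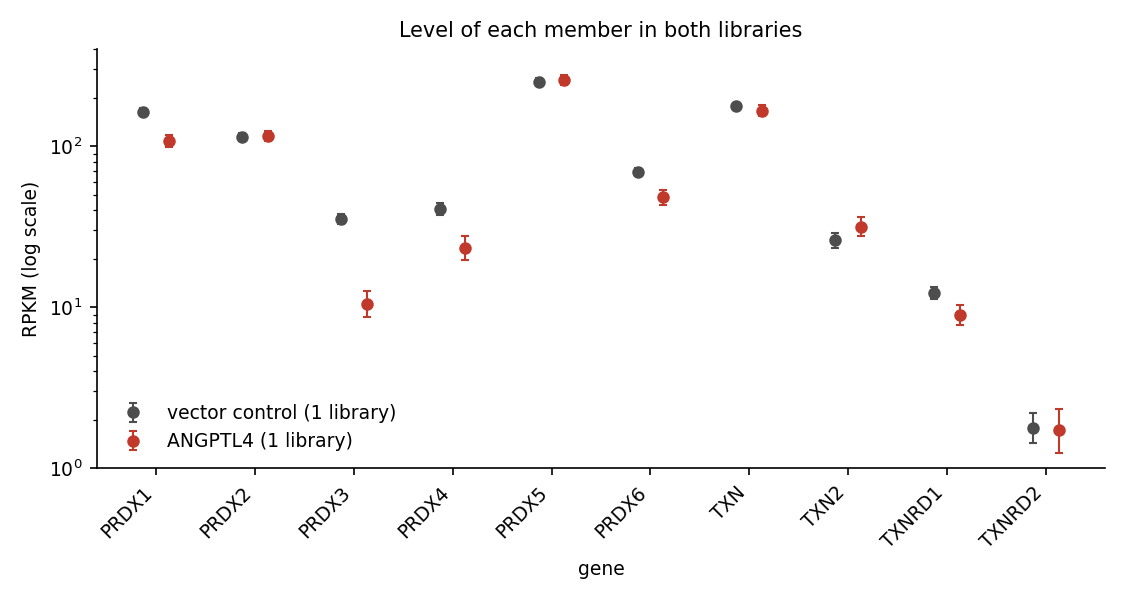
Level of each of the 10 genes in RPKM (log axis) in the vector control library (grey) and the ANGPTL4 library (red), with exact 95% counting intervals as bars and 1 library per group. The points of PRDX3 lie farthest apart, at 35.2 and 10.5 RPKM, while those of PRDX2, PRDX5, TXN, TXN2 and TXNRD2 overlap in their intervals.

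The thioredoxins carry electrons to the 2-Cys peroxiredoxins. TXN, the cytosolic thioredoxin, was at 176.8 RPKM with the vector and 166.5 RPKM with ANGPTL4, with a ratio of 0.942 (0.855 to 1.04) whose interval includes 1. TXN2, the mitochondrial thioredoxin that reduces PRDX3, was at 26.1 RPKM from 352 reads with the vector and 31.7 RPKM from 210 reads with ANGPTL4. Its ratio was 1.21 (1.02 to 1.44), so that the lower bound is close to 1, and its log2 ratio of 0.27 was the highest of the 10. PRDX3, on which the set was selected, and TXN2, partners in the same compartment, thus lay on opposite sides of a ratio of 1. For TXN2 the size of the difference depends on scaling, with a log2 ratio of 0.10 when levels were rescaled to a fixed total. There were 1.35 RPKM of PRDX3 for each RPKM of TXN2 in the control library and 0.331 in the ANGPTL4 library.

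The reductases were the least abundant genes of the system. TXNRD1, the cytosolic reductase and a known NRF2 target, was at 12.3 RPKM with the vector (11.3 to 13.4) and 8.93 RPKM with ANGPTL4 (7.71 to 10.3), a ratio of 0.724 (0.611 to 0.855). TXNRD2, the mitochondrial reductase, was at 1.79 RPKM from 86 reads with the vector and 1.73 RPKM from 41 reads in the ANGPTL4 library. Its ratio was 0.969 (0.651 to 1.42), and at this depth a difference inside that interval was not detectable. The RPKM of TXNRD2 was computed over 7323 bases of annotated exons, whereas its main transcript has 2115 bases, so the level is likely understated while the ratio is not affected. The same holds in lesser degree for PRDX3, with 3417 bases of exons and a main transcript of 1591 bases. Further such pairs were 2114 and 987 bases for PRDX2, 1904 and 1005 for PRDX4, and 6686 and 3930 for TXNRD1. For PRDX5 both were 893 bases, so comparisons of level between members depend on the lengths used.

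By compartment the mitochondrial members did not share a direction. Of PRDX3, PRDX5, TXN2 and TXNRD2, 1 had an interval wholly below 1, 1 wholly above 1, and 2 included 1. Of the 5 cytosolic members 3 were below (PRDX1, PRDX6 and TXNRD1) and 2 included 1 (PRDX2 and TXN). Among measured genes with a settled exon length the shares below and above 1 were 28.1% and 8.5%. Among those with at least 300 control reads they were 40.5% and 12.9%. With so few genes per compartment, no contrast between compartments can be read from these counts. The median log2 ratio was -0.56 for the 6 peroxiredoxins and -0.06 for the 4 thioredoxins and reductases. PRDX3, on which the set was selected, is among the 6, and without it the middle value was that of PRDX6, -0.51. Over all 10 members the median was -0.26, and -0.09 over the 9 without PRDX3, beside -0.11 for all measured genes. Below that overall median lay 5 of the 10, where 50% of measured genes lie by definition.

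**Figure D2:**
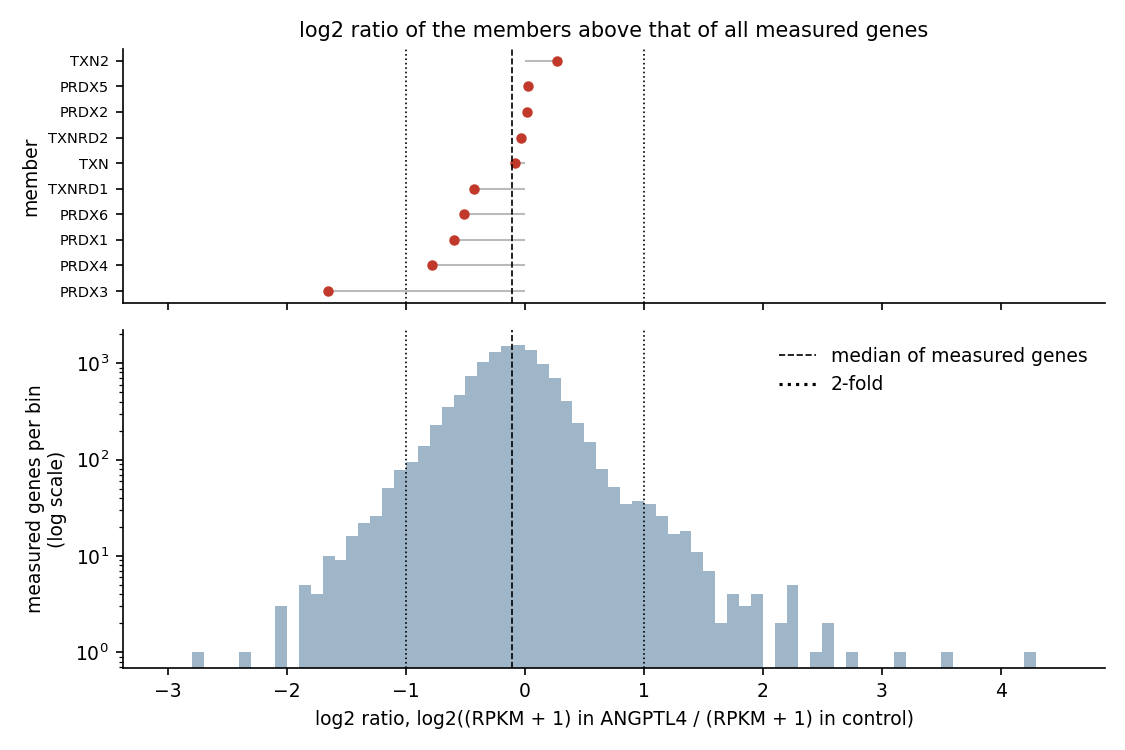
Top, log2 ratio of each of the 10 genes; bottom, number of measured genes per bin of 0.1 log2 units (log axis), with the median of measured genes dashed and 2-fold differences dotted. PRDX3 at -1.65 lies beyond the 2-fold line, and the other members lie between -0.78 and 0.27.

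The order of the levels differed in the middle of the set. With the vector it ran PRDX5, TXN, PRDX1, PRDX2, PRDX6, PRDX4, PRDX3, TXN2, TXNRD1, TXNRD2, and every neighbouring pair in that order was separated by more than counting error. Counting error does not cover the exon lengths behind the RPKM, so the order holds only for the lengths used. In the ANGPTL4 library PRDX2 stood above PRDX1 by 1.08 times (0.964 to 1.20), a pair that counting error does not separate. TXN2 stood above both PRDX4 and PRDX3 there, and PRDX3 stood above TXNRD1 by 1.18 times (0.926 to 1.49), which was likewise not separated. Among all measured genes PRDX3 went from place 1033 by level in the control to place 3470 in the ANGPTL4 library, whereas PRDX5 was at places 87 and 76.

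The summed level of the 6 peroxiredoxins was 675.3 RPKM with the vector and 563.1 RPKM with ANGPTL4, a ratio of 0.834. PRDX5 made up 37.3% of that sum in the control library and 45.7% in the ANGPTL4 library, and PRDX2 made up 16.9% and 20.6%. PRDX1 went from 24.2% to 19.1%, and PRDX3 from 5.21% to 1.86%. Sums and shares likewise depend on the exon lengths used. PRDX3 was lower by 24.7 RPKM, and PRDX1, whose level was higher, by 55.7 RPKM. For the thioredoxins the sums were 202.9 and 198.2 RPKM, and for the reductases 14.1 and 10.7 RPKM.

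**Figure D3:**
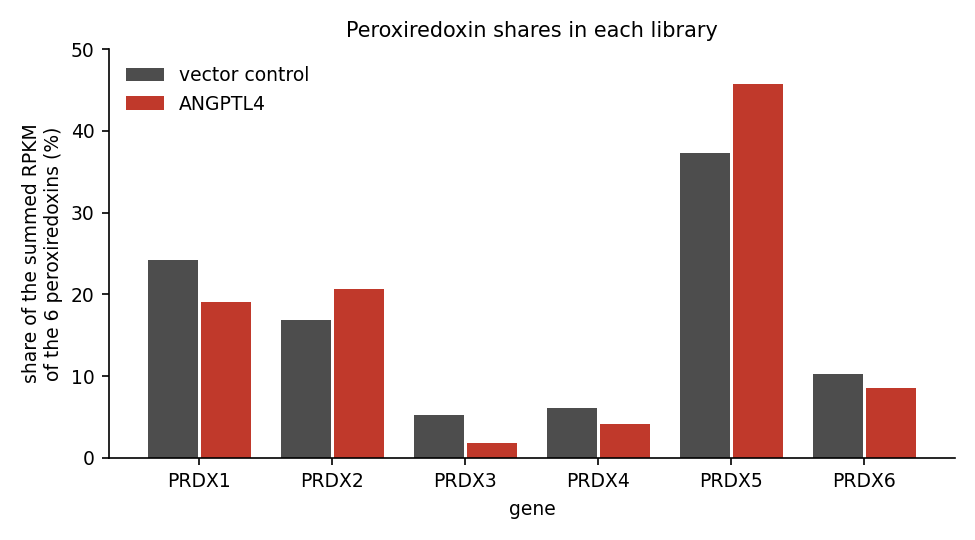
Share of each peroxiredoxin in the summed RPKM of all 6, in percent, for the vector control library (grey) and the ANGPTL4 library (red). PRDX5 and PRDX2 hold larger shares in the ANGPTL4 library, 45.7% and 20.6%, and PRDX3 a smaller one, 1.86% against 5.21%.

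Reads of near-identical copies and of overlapping genes could be divided in more than 1 way. The data list 16 pseudogenes named after members, 7 of TXN, 4 each of PRDX2 and PRDX3 and 1 of PRDX4, and all were listed at 0 in both libraries. In the GENCODE release 29 transcripts, 1.23% of the 50-base words of PRDX3 occurred in another gene, PRDX3P1 or PRDX3P2, and none of those of PRDX4, PRDX5 or TXNRD1 did. The share was 28.6% for PRDX1, nearly all from MMACHC, a cobalamin enzyme gene that adjoins it, although in the hg19 regions of the data the pair overlaps only at its edge. It was 26.0% for PRDX2, mostly from AC018761.2. MMACHC was at 6.48 and 4.88 RPKM in the vector and ANGPTL4 libraries. The region of PRDX2 lies inside that of HOOK2, at 9.49 and 12.9 RPKM, and overlaps CTD-2659N19.10, at 1.03 and 2.09 RPKM. That of TXNRD1 contains the ribosomal protein pseudogene RPL18AP3, at 2.43 and 15.4 RPKM. No other gene row overlapped the region of PRDX3.

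Of the 13 measured genes within 1 Mb of PRDX3 on chromosome 10, 9 were lower in the ANGPTL4 library, beside 64.4% of all measured genes, none by 2-fold, with a median log2 ratio of -0.16. The lowest was SFXN4, a mitochondrial sideroflexin, at -0.72, and the highest EIF3A, a translation initiation factor, at 0.21.

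The 5 named genes with the most similar pair of levels, by straight-line distance in log2(RPKM + 1) over the 2 libraries, were SEC61B, GSTO1, MMADHC, OSTC and TMEM256. SEC61B, a subunit of the protein translocon, was at 30.3 RPKM with the vector and 11.7 RPKM with ANGPTL4. GSTO1, an omega glutathione transferase, was at 28.0 and 9.33 RPKM, and OSTC, an oligosaccharyltransferase subunit, at 26.9 and 9.37 RPKM. MMADHC, a cobalamin trafficking gene, was at 27.2 and 11.7 RPKM, and TMEM256 at 31.6 and 14.0 RPKM. With only 2 libraries many genes can be this close.

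The wider system was followed in 9 lists by role, 67 genes in all, of which 62 were measured. Of these, 2 were at least 2-fold lower and none at least 2-fold higher, beside 1.91% and 1.19% of all measured genes. One of them, MSRB2, rests on 3 reads in the ANGPTL4 library. The median log2 ratio of the measured role genes was -0.18, beside -0.11 for all measured genes. Sulfiredoxin, SRXN1, which repairs overoxidised 2-Cys peroxiredoxins, was at 22.3 RPKM with the vector and 16.8 RPKM with ANGPTL4, a ratio of 0.756 (0.622 to 0.916). The sestrins SESN1 and SESN2 had ratios of 0.762 and 0.744 with intervals that include 1, and SESN3 did not reach 1 RPKM. The median of the 3 measured repair genes was -0.35. TXNIP, which binds and inhibits thioredoxin, was at 157.6 and 105.4 RPKM, a ratio of 0.669 (0.627 to 0.713). There was 1.12 RPKM of TXN for each RPKM of TXNIP in the control library and 1.58 in the ANGPTL4 library.

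Among 16 other proteins with a thioredoxin fold and reductases, 15 were lower, beside 64.4% of all measured genes, with a median log2 ratio of -0.17. Most were within counting error, as 14 of the 16 intervals included 1. Only 2 lay wholly below 1, beside 28.1% of measured genes with a settled exon length. TMX1, a thioredoxin-related membrane protein of the endoplasmic reticulum, was at 16.4 RPKM from 483 reads with the vector and 7.02 RPKM from 102 reads in the ANGPTL4 library, a ratio of 0.429 (0.343 to 0.532). TXNDC5, a disulfide isomerase of the same compartment, was at 59.2 and 36.5 RPKM, a ratio of 0.617 (0.560 to 0.679). TMX2 was the member on the other side, at 39.4 and 44.5 RPKM, with a ratio of 1.13 (0.983 to 1.30). All 6 measured genes whose products thioredoxin reduces or binds were lower, beside the same 64.4%, with a median of -0.22. For 4 of these 6 the interval included 1, and for 2 it lay wholly below 1, beside the same 28.1%. MSRB2, the mitochondrial methionine sulfoxide reductase, was at 2.22 RPKM from 30 reads and 0.452 RPKM from 3 reads, a ratio of 0.203 (0.0397 to 0.654). RRM1, the large subunit of ribonucleotide reductase, had a ratio of 0.754 (0.649 to 0.873), whereas RRM2, the small subunit, was at 36.0 and 35.7 RPKM.

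The glutathione route runs in parallel to that of thioredoxin. Glutaredoxins and glutathione genes had a median log2 ratio of -0.11, as did all measured genes. Glutathione reductase, GSR, was at 22.9 RPKM with the vector and 23.3 RPKM with ANGPTL4, and GLRX3, a cytosolic glutaredoxin of iron handling, at 57.5 and 42.0 RPKM, a ratio of 0.730 (0.665 to 0.801). The other peroxide and superoxide enzymes lay on both sides, 5 lower and 4 higher, beside 64.4% and 35.6% of all measured genes, with a median of -0.12. SOD2, the mitochondrial superoxide dismutase that makes the peroxide PRDX3 removes, was at 18.5 and 20.6 RPKM, a ratio of 1.11 (1.04 to 1.19). GPX1 was at 88.1 and 72.9 RPKM, a ratio of 0.828 (0.727 to 0.941). GPX2 had 14 and 2 reads, 1.51 and 0.440 RPKM, and GPX7 at 2.34 and 3.47 RPKM, from 26 and 19 reads, both with intervals that include 1. CAT, the peroxisomal catalase, was at 6.23 and 4.80 RPKM, also within counting error.

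Of the 7 genes that supply NADPH, 6 were lower, beside 64.4% of all measured genes, with a median log2 ratio of -0.21. Intervals included 1 for 4 of the 7. They lay wholly below 1 for 3, beside 28.1% of measured genes with a settled exon length. IDH1, the cytosolic isocitrate dehydrogenase, was at 17.3 RPKM with the vector and 10.2 RPKM with ANGPTL4, a ratio of 0.592 (0.492 to 0.708). Its mitochondrial counterpart IDH2 was at 14.8 and 16.4 RPKM, a ratio of 1.11 (0.899 to 1.35). ME1, the cytosolic malic enzyme, was at 13.2 and 8.51 RPKM, a ratio of 0.643 (0.504 to 0.814). PGD, a dehydrogenase of the pentose phosphate pathway, was at 39.3 and 36.8 RPKM, with an interval that includes 1.

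Genes that insert selenocysteine, on which both reductases depend, had a median log2 ratio of -0.19 over 5 measured genes. SEPHS1 was at 17.1 RPKM with the vector and 13.4 RPKM with ANGPTL4, a ratio of 0.782 (0.652 to 0.935), and SECISBP2, which binds the selenocysteine insertion element, at 4.63 and 5.12 RPKM. The oxidative folding genes of the endoplasmic reticulum, the compartment of PRDX4, had a median of 0.04, with 5 of 8 higher, beside 35.6% of all measured genes. By counting interval, however, 3 of the 8 lay wholly below 1, 1 wholly above 1, and 4 included 1. Of measured genes with a settled exon length, 28.1% lay wholly below 1 and 8.5% wholly above 1. P4HB, protein disulfide isomerase, was at 145.1 and 155.7 RPKM, a ratio of 1.07 (1.02 to 1.12), and ERO1L, the oxidase that shares the task of PRDX4, at 53.8 and 46.5 RPKM, a ratio of 0.864 (0.782 to 0.954). The exon lengths of ERO1L and of ERO1LB, also in this list, were not settled, so their reads are minimum numbers. ERO1L is among the 3 below 1, although the shares cover settled lengths only.

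**Figure D4:**
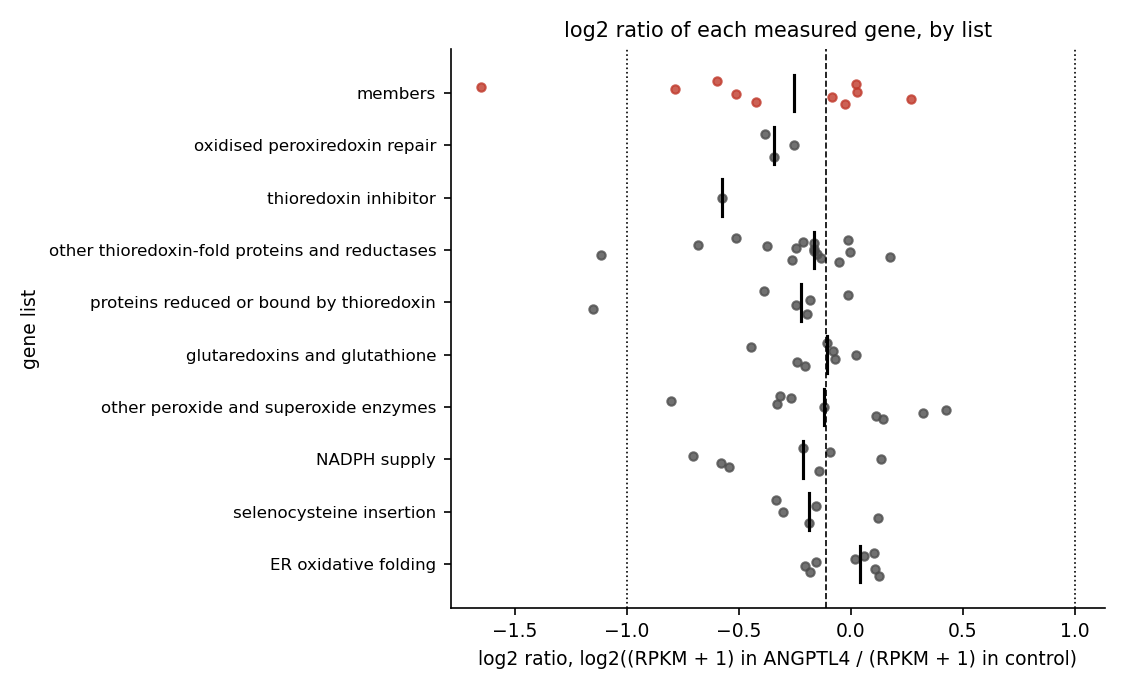
log2 ratio of each measured gene, with the 10 members in red and the 9 role lists in grey; black bars are list medians, the dashed line is the median of measured genes and the dotted lines are 2-fold differences. PRDX3 at -1.65 lies lowest of all genes shown, followed by MSRB2 at -1.15 and TMX1 at -1.11.

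Scaling decided the sign of the smallest differences. PRDX1, PRDX3, PRDX4, PRDX6 and TXNRD1 had log2 ratios below 0 and TXN2 one above 0 under each of the 10 alternatives tried, while PRDX2, PRDX5, TXN and TXNRD2 changed sign under at least 1 of them. PRDX3 ranged from -1.81 to -1.37, and TXN2 from 0.10 to 0.47.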

How the data were processed

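Gene levels were RPKM values as the authors deposited them, 1 per gene row and library, per the file headers, with hg19 as build according to the submitters' processing notes. Which aligner, counter, annotation and strand setting were used is not given in the sources used here. Rows of 1 symbol were summed (57773 rows, 55773 symbols). A library total was sought at which all 13 mitochondrial genes became whole reads, and for each row the exon length at which both libraries gave whole reads, nearest the GENCODE release 29 exon length. A length within 30% of that reference was settled for 80.3% of rows above 0, and for all 10 members. Other rows kept the smallest such length, so their reads are minimum numbers. RPKM divides by library reads, so abundant genes lower all others. On 1 kb of exon, 1 read equalled 0.152 RPKM for the control and 0.309 RPKM for ANGPTL4. Ratios have exact conditional binomial intervals, and levels exact Poisson intervals (Python 3.11.15, scipy 1.17.1). The log2 ratio used a pseudocount of 1 RPKM, measured genes had at least 1 RPKM in a library, and the size rule was 2-fold. The text names all members, role-list genes that differ 1.5-fold or lie at either end of their list and some others of these lists, the 5 genes nearest PRDX3 and overlapping rows. The chromosome neighbours, the main transcripts and the gene next to PRDX3 in rank were added after values were seen. Members and lists were chosen with earlier results of these data known. Procedures were tested on simulated data. Some genes that these rules select are not reported here.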

Additional observations from a re-analysis of the deposited data

How the results depend on the processing

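Of the 10 alternatives, 2 changed the pseudocount (0.1 or 5), 2 the minimum level (none or 5 RPKM) and 4 the scaling (median gene, upper quartile, fixed total, or reads left once mitochondrial genes, ribosomal protein genes and small RNAs were removed), 1 corrected for exon length and 1 kept the highest row per symbol. PRDX3 stayed the 1 member at least 2-fold lower under each of them. The median of the 10 members ranged from -0.43 to -0.11, and was -0.43 with a minimum of 5 RPKM, which leaves out TXNRD2. TXNIP was at -0.58 as deposited, -0.46 centred, -0.42 with upper-quartile scaling, -0.74 with a fixed total and -0.44 corrected for length. The oxidative folding list was at 0.04 as deposited, 0.18 with upper-quartile scaling, -0.15 with a fixed total and 0.17 corrected for length, so its sign depends on scaling. Genes at least 2-fold lower and higher numbered 226 and 141 as deposited, 532 and 284 with a pseudocount of 0.1, 26 and 15 with 5, 126 and 34 with a minimum of 5 RPKM, 139 and 182 centred, 147 and 189 with upper-quartile scaling, 346 and 104 with a fixed total, and 134 and 182 corrected for length. The cause of these differences was not tested. No paired analysis was possible because each group has 1 library. Depth limits TXNRD2, MSRB2, GPX2 and GPX7, which rest on few reads.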
